A study of Mus musculus with 5 samples.

Results

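The genes described are the 3 subunits of the epithelial sodium channel, *Scnn1a*, *Scnn1b* and *Scnn1g*, and 5 genes of the aldosterone response around the channel, *Hsd11b2*, *Nr3c2*, *Sgk1*, *Nedd4l* and *Tsc22d3*. They were chosen by name, 8 of the 17389 genes in the count matrix, and all 8 were found. Their levels were followed over the 19 cell types that the authors annotated and over the 5 libraries of the series.

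The epithelial sodium channel sits in the apical membrane of the aldosterone-sensitive distal nephron, that is, the late distal convoluted tubule, the connecting tubule and the principal cells of the collecting duct, where it carries sodium from the urine into the cell. Aldosterone binds the mineralocorticoid receptor (*Nr3c2*), and the enzyme encoded by *Hsd11b2* inactivates glucocorticoids so that they do not occupy this receptor. The kinase encoded by *Sgk1* is induced by the hormone and phosphorylates the ubiquitin ligase encoded by *Nedd4l*, which otherwise removes the channel from the membrane, and *Tsc22d3* encodes GILZ, a leucine zipper protein induced by corticosteroids.

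Kidneys of adult *FVB/Ant* mice were dissociated with collagenase P and trypsin, single cells were encapsulated in droplets, and unique molecular identifiers (UMIs) counted the captured RNA molecules at their 3′ ends. Of the KO mice there were 3 libraries (female, male and mix), and in these mice CRISPR/Cas9 had placed a double STOP codon after the start codon of *Fame*, a gene of a kidney membrane protein. The WT libraries are WT female and WT mix, from control littermates, and mix stands for cells of both sexes. There is no WT library of males alone, how many mice went into each library was not stated, and p-values therefore measure only the spread between libraries, which may be technical. Below, values of the KO libraries are in the order female, male and mix, and values of the WT libraries in the order female and mix.

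The libraries held 1794 to 3567 cells each, with 9791091 to 15950717 UMIs in total, and any pair of them shared 0 to 5 cell barcodes. The annotation places KO female, KO male and WT female in sequencing run 2 and KO mix and WT mix in run 3. The median share of mitochondrial UMIs per cell was 29.4% and 28.4% in KO mix and WT mix of run 3, against 12.6%, 15.3% and 14.3% in KO female, KO male and WT female of run 2, so run, sex composition and mitochondrial share cannot be told apart at the level of libraries. The targeted gene, *ccdc198* in the matrix, had 148, 127 and 83.1 CPM (UMIs scaled to a total of 1000000) over all cells of the KO libraries and 196 and 71.5 CPM in the WT libraries, and a count at the 3′ end does not check a STOP codon at the start of the coding sequence. The paper reports that its single-cell data showed the consecutive STOP codons in *Fame* mRNA of KO cells.

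Levels are CPM of all UMIs of a cell type in a library, for the 18 cell types with at least 20 cells in a library. Since the annotation was made on the same cells and genes, levels across cell types are a description without a test, and neighbours in an order are called separate only where their ranges over libraries do not overlap. Reads were counted at 3′ ends, so levels are not compared between genes. The labelled types carried their markers. In the principal cells of the collecting duct (CD PC) the summed level of 7 principal cell markers was 8181, 9907 and 12937 CPM in the KO libraries and 7129 and 13163 CPM in the WT libraries, while in the glomerular endothelium (GL endo) it stayed between 116 and 169.9 CPM. The summed level of 8 markers of the distal convoluted and connecting tubule was 42902, 28640.4 and 6432 CPM in CD PC of the KO libraries and 15172 and 6689 CPM in CD PC of the WT libraries, carried mainly by *S100g* and *Klk1*, so that this cluster was not free of connecting tubule transcripts, above all in run 2.

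*Scnn1a*, the α subunit, was the most widespread subunit. It was found in CD PC, in the cluster of intercalated and transitional cells (CD IC/CD Trans), in the distal convoluted tubule (DCT) and in the loop of Henle (LOH), which held 17.6%, 22.4%, 24.9% and 26.7% of its 3851 UMIs. In CD PC it had 540.4, 336 and 224 CPM in the KO libraries and 457 and 394 CPM in the WT libraries, with a mean of 390.3 ± 120.2 CPM (SD, n = 5). CD IC/CD Trans had 438, 304 and 285 CPM in the KO libraries and 391 and 401 CPM in the WT libraries, and DCT had 375, 332 and 246 CPM in the KO libraries and 349.9 and 296 CPM in the WT libraries. These 3 types were not separate from each other, with means of 364 CPM in CD IC/CD Trans and 319.9 CPM in DCT. In LOH, a cluster led by the thick ascending limb markers *Umod* and *Slc12a1*, *Scnn1a* had 187, 191 and 84.5 CPM in the KO libraries and 183 and 104 CPM in the WT libraries, below DCT in 5 of 5 libraries without overlap. LOH was in turn separate from the next type, red blood cells (RBC), at 24.6 ± 6.90 CPM (SD, n = 4). Proximal straight tubule cells (PT s) averaged 5.17 CPM.

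*Scnn1b* and *Scnn1g*, the β and γ subunits, were confined to fewer types than *Scnn1a*. *Scnn1b* had 409, 240.0 and 215 CPM in the KO libraries and 241 and 328 CPM in the WT libraries in CD PC, and 173, 147 and 153 CPM in the KO libraries and 196 and 224 CPM in the WT libraries in CD IC/CD Trans, where it was lower than in CD PC in 5 of 5 libraries although the ranges overlapped. *Scnn1g* had 348, 360.0 and 245 CPM in the KO libraries and 266 and 319 CPM in the WT libraries in CD PC and 216, 159.6 and 159.6 CPM in the KO libraries and 229.9 and 135 CPM in the WT libraries in CD IC/CD Trans, without overlap. In DCT the mean was 72.1 ± 51.6 CPM (SD, n = 5) for *Scnn1b* and 58.3 ± 40.0 CPM (SD, n = 5) for *Scnn1g*, with a wide spread between libraries that is taken up below. In LOH all libraries together held 3 UMIs of *Scnn1b* and 8 of *Scnn1g* among 6415196 UMIs, that is 0.468 CPM (95% exact Poisson interval 0.0964 to 1.37) and 1.25 CPM (0.538 to 2.46). RBC and GL endo, taken as the measure of free RNA in the droplets, had 3.15 and 2.07 CPM of *Scnn1b* and 2.22 and 2.55 CPM of *Scnn1g*, so the levels in LOH were at or below the background. For *Scnn1a* the pooled level in LOH was 7.43 times that in RBC and 12.7 times that in GL endo. LOH therefore carried transcripts of the α subunit above the background, and those of the β and γ subunits not above it.

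**Figure D1:**
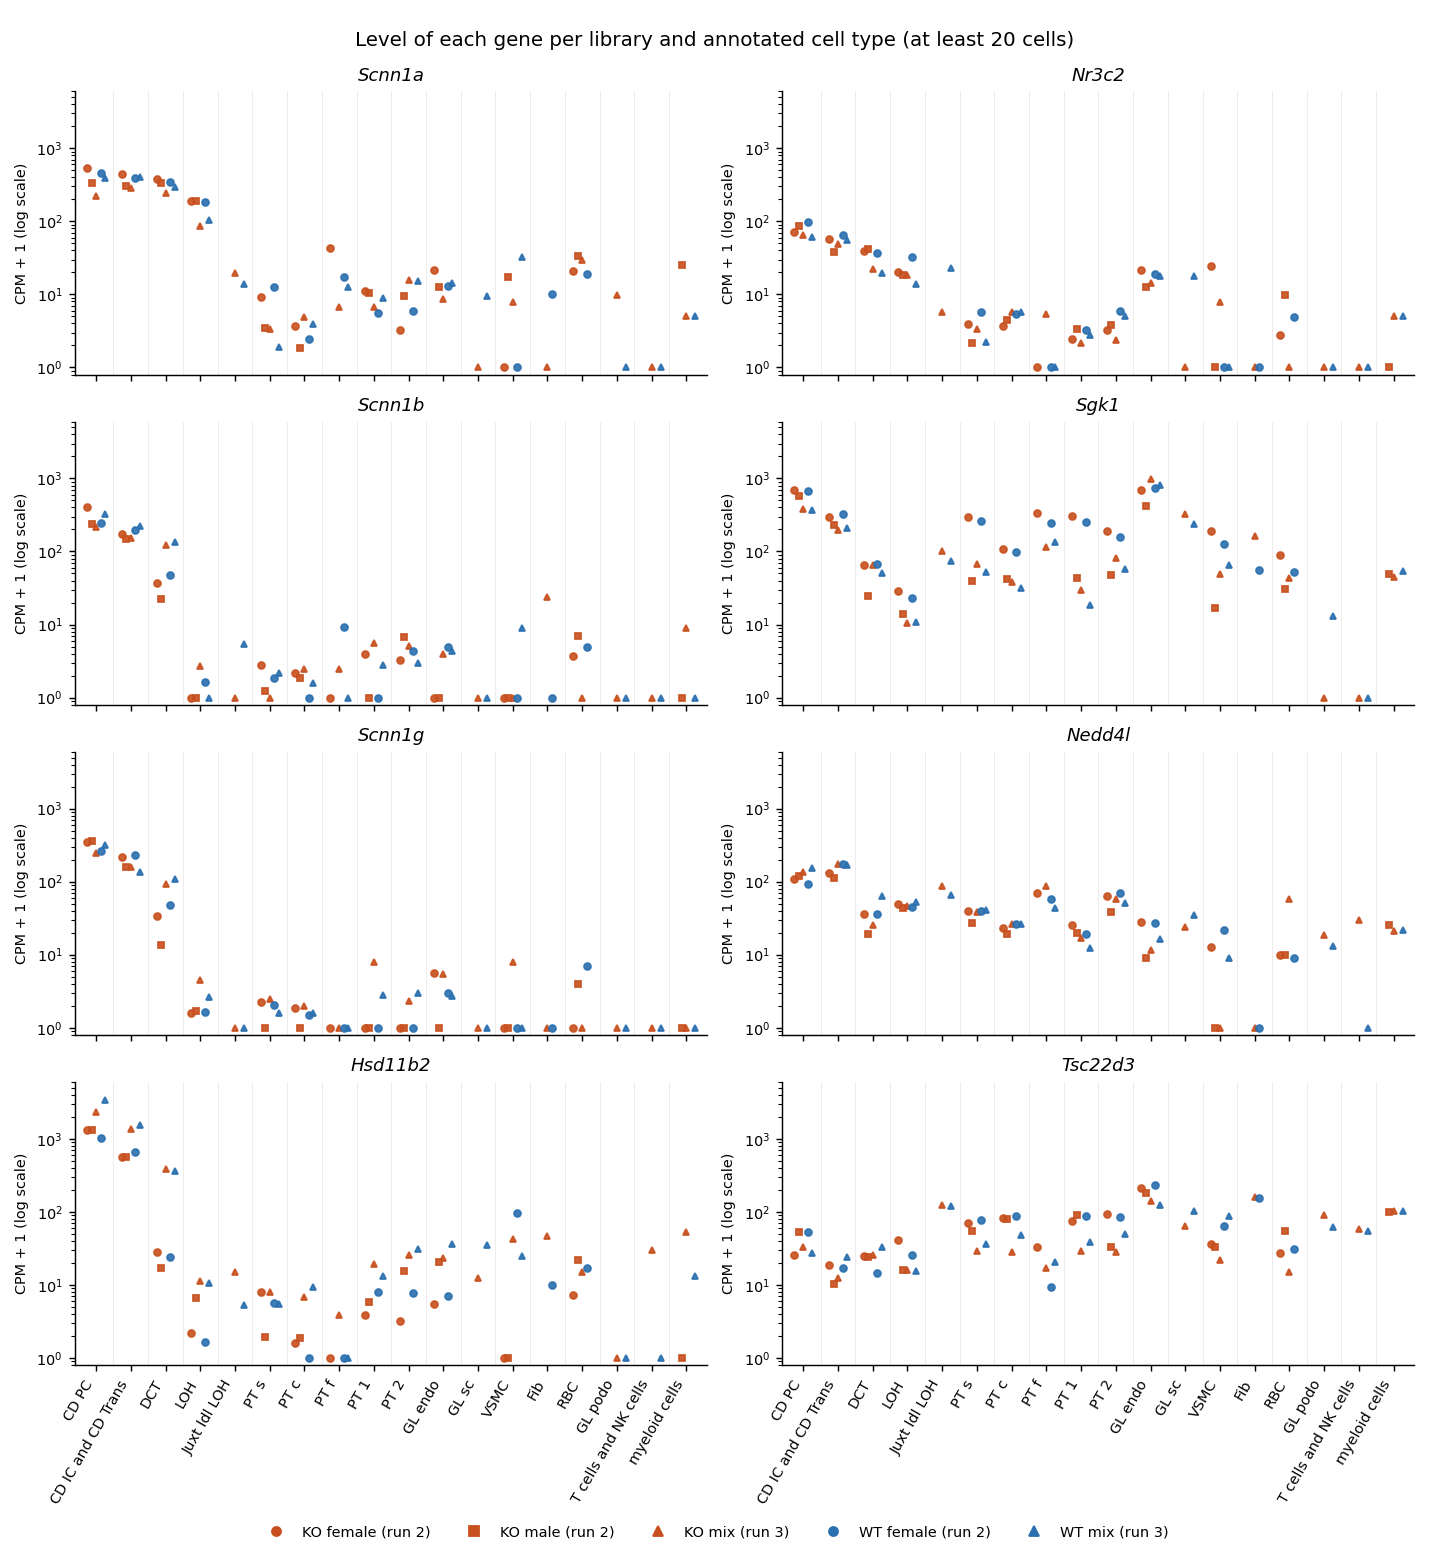
Levels of the 8 genes by cell type, 1 panel for each gene, with CPM + 1 on a log axis, 1 point for each library (KO orange, WT blue). The channel subunits and *Hsd11b2* are highest in CD PC, *Scnn1a* is the only subunit above the background in LOH, and *Sgk1* and *Tsc22d3* are highest in GL endo.

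The subunits were then followed in single cells. In CD PC, 63.9% of cells had a UMI of *Scnn1a*, 57.8% of *Scnn1b* and 57.7% of *Scnn1g* (means over 5 libraries), against 3.26%, 0.486% and 0.725% in GL endo. With each cell thinned to 1000 UMIs the shares in CD PC were 33.9%, 25.1% and 28.3%. Of 445 CD PC cells, 67 had no UMI of any subunit, 118 had 1 subunit, 131 had 2 and 129 had all 3. More than 1 subunit was found in 61.1 ± 9.62% of CD PC cells (SD, n = 5), and in 20.5 ± 5.98% after thinning. Such cells made up 46.9% of CD IC/CD Trans and 18.8% of DCT, and after thinning 8.79% and 3.85%. LOH had 458 of 1384 cells with 1 subunit, 6 cells with 2 and 0 with all 3, and its share with more than 1 subunit, 0.472%, lay near those of GL endo (0.209%) and PT s (0.252%).

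*Hsd11b2* was the member most concentrated in the collecting duct, with 56.8% of its 5989 UMIs in CD PC and 33.2% in CD IC/CD Trans. In CD PC it had 1312, 1308 and 2329.6 CPM in the KO libraries and 1035 and 3368 CPM in the WT libraries, with a mean of 1870.5 ± 972 CPM (SD, n = 5). CD IC/CD Trans had 558, 552 and 1377 CPM in the KO libraries and 657 and 1559 CPM in the WT libraries, lower than CD PC in 5 of 5 libraries with overlapping ranges. In both types the mixed libraries KO mix and WT mix had the highest levels. A UMI of *Hsd11b2* was found in 90.4% of CD PC cells (72.8% after thinning), against 3.18% in GL endo and 2.66% in RBC at lower depth. DCT followed with 162 ± 192 CPM (SD, n = 5), no longer separate from vascular smooth muscle cells at 32.1 ± 39.2 CPM (SD, n = 5).

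*Nr3c2*, the receptor, was a gene of low counts, 682 UMIs in all. The order of its highest types, CD PC, CD IC/CD Trans, DCT and LOH, was that of *Scnn1a*. In CD PC it had 71.1, 84.0 and 64.5 CPM in the KO libraries and 96.8 and 60.9 CPM in the WT libraries. CD IC/CD Trans had 55.4, 36.8 and 47.9 CPM in the KO libraries and 63.6 and 54.0 CPM in the WT libraries. DCT had a mean of 31.3 ± 10.4 CPM (SD, n = 5), LOH 19.8 ± 6.95 CPM (SD, n = 5) and GL endo 16.1 ± 3.46 CPM (SD, n = 5), against 3.66 CPM in RBC. Each type overlapped with the next in this order, although CD PC was above CD IC/CD Trans in 5 of 5 libraries.

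*Sgk1*, the kinase, was highest outside the tubule. GL endo had 691, 413 and 972 CPM in the KO libraries and 732 and 814 CPM in the WT libraries, and CD PC had 697, 579.9 and 380.4 CPM in the KO libraries and 664 and 374 CPM in the WT libraries. These types overlapped, with GL endo higher in 3 of 5 libraries, at means of 724 ± 205 CPM (SD, n = 5) and 539 ± 154 CPM (SD, n = 5). Means were 251 CPM in CD IC/CD Trans, 53.9 CPM in DCT and 16.4 CPM in LOH, and DCT and LOH were not above RBC, at 53.3 CPM. A UMI of *Sgk1* was found in 67.1% of GL endo cells, against 10.3% of RBC. In PT s the level ranged from 38.4 to 293 CPM over libraries, and PT s held 36.8% of its 9286 UMIs. This spread is taken up with the sex of the cells below.

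*Sgk1* is the only member, of the 5 with a promoter window, where a window matched the full palindrome of a corticosteroid response element. The window is shown for this match. Such a palindrome is bound by both corticosteroid receptors. Windows run from 250 bases before to 50 bases after each transcript start in RefSeq (GRCm38.p6), and 5 of the 8 genes matched a window. No window matched *Scnn1a*, *Hsd11b2* or *Nedd4l*, and so these genes were not searched. The palindrome searched was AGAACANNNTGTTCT, which reads the same on both strands. The palindrome was found in 1 of 6 windows of *Sgk1*, in 1 of the 12 windows of all 5 genes and in 3 of 32851 windows of the genome, or 0.00913%. The window of *Sgk1* lies at chr10:21993640-21993939 on the plus strand, inside the span of the gene at the start of 1 of its transcripts, and the capitals mark the palindrome, at bases -189 to -175 from the start (chr10:21993701-21993715).
*Sgk1* promoter window: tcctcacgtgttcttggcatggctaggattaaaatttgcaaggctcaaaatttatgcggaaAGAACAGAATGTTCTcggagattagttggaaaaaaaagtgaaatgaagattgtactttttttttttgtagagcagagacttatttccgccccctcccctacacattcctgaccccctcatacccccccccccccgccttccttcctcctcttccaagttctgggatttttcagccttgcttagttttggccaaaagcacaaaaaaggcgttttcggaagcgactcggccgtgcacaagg
The match is a description of letters and was not tested as a binding site. No palindrome in the other windows says only that these letters are absent there.

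*Nedd4l*, the ubiquitin ligase, was more even over the tubule. It was highest in CD IC/CD Trans, at 129, 110.5 and 176 CPM in the KO libraries and 173 and 166 CPM in the WT libraries, followed by CD PC at 107, 120.0 and 133 CPM in the KO libraries and 92.3 and 151 CPM in the WT libraries, with overlapping ranges. LOH had 46.5 ± 3.77 CPM (SD, n = 5), and PT s, without overlap with LOH, 36.0 ± 5.62 CPM (SD, n = 5). GL endo and RBC had 17.3 and 20.6 CPM, and LOH was above GL endo in 5 of 5 libraries and above RBC in 3 of the 4 libraries with RBC, KO mix being the exception.

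*Tsc22d3* ran the other way. It was highest in GL endo at 209, 181 and 139.8 CPM in the KO libraries and 229 and 123 CPM in the WT libraries, and fibroblasts, counted in 2 libraries, had 157 ± 4.41 CPM (SD, n = 2). Myeloid cells averaged 100.3 CPM and proximal convoluted tubule cells (PT c) 63.9 CPM, against 37.4 CPM in CD PC. CD IC/CD Trans, the type with the most *Nedd4l*, had the lowest mean of *Tsc22d3* among the 18 types, 15.6 CPM, not separate from LOH, DCT or PT f. These low levels were not above RBC, at 30.8 CPM.

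The annotation of GENCODE M21 (GRCm38), matched by symbol, places *Scnn1a* at chr6:125320659-125344943 and the other subunit genes next to each other on chromosome 7, *Scnn1g* at chr7:121734479-121768475 and *Scnn1b* at chr7:121865038-121918514. *Hsd11b2* lies at chr8:105518755-105523988, *Nr3c2* at chr8:76899442-77245012 and *Sgk1* at chr10:21882184-21999903, all on the plus strand, and *Tsc22d3* lies at chrX:140539528-140600659 on the minus strand. *Cog7* overlaps *Scnn1b*, *Gm10649* overlaps *Nr3c2* and *A330084C13Rik* overlaps *Nedd4l* on the other strand.

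Genes whose pattern over the 18 cell types was most like that of each member were taken by Pearson's r of log2 (mean CPM + 10), among 7031 genes with a mean of at least 50 CPM in a type. The points are cell types of the same 5 libraries, so r is a description without a p-value. *Scnn1b* was most like *Rhcg* (0.984), *Scnn1g* (0.983) and *Ptges* (0.975), and *Scnn1g* most like *Rhcg* (0.986), *Scnn1b* (0.983) and *Rhbg* (0.969), where *Rhcg* and *Rhbg* encode ammonia transporters of the distal nephron. For *Hsd11b2* the list was *Scnn1b* (0.963), *Scnn1g* (0.959) and *Rhcg* (0.956). *Scnn1a* was most like *Tspan1* (0.978), *Slc35g1* (0.963) and *Kcnq1* (0.959), and *Mal2* (0.933) and *Kcnq1* (0.928) were among the 3 genes most like *Nr3c2*. *Kcnq1*, a potassium channel subunit, stood on both of these lists. *Sgk1* had no close partner, with *Sh3rf1* (0.782), *Arl2bp* (0.765) and *Pnp* (0.761), and its r with the subunits was 0.25 to 0.40. *Nedd4l* led to *Arhgef38* (0.852), *Rnf128* (0.832) and *Rab11fip4* (0.819), and *Tsc22d3* to *Sash1* (0.884), *Tgfbr2* (0.819) and *Rtl8a* (0.811). Between *Tsc22d3* and *Scnn1a*, r was -0.64.

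The name of CD IC/CD Trans joins more than 1 cell type, and so its 354 cells were divided by a UMI of *Aqp2*, the water channel of principal cells, and of *Atp6v1g3*, a proton pump subunit of intercalated cells. Cells with both numbered 167, cells with *Atp6v1g3* only 180. *Hsd11b2* had 926, 1032 and 2038 CPM in the KO libraries and 908 and 2279 CPM in the WT libraries in the cells with both, and 59.7, 79.9 and 89.6 CPM in the KO libraries and 109 and 161 CPM in the WT libraries in the cells with *Atp6v1g3* only. *Scnn1b* and *Scnn1g* followed the same division without overlap. *Scnn1b* had 267, 210.1 and 216 CPM in the KO libraries and 239 and 286 CPM in the WT libraries in cells with both, and 42.7, 86.0 and 27.6 CPM in the KO libraries and 105 and 92.1 CPM in the WT libraries in cells with *Atp6v1g3* only. *Sgk1* was divided likewise, with 444, 402 and 272 CPM in the KO libraries and 406 and 280.5 CPM in the WT libraries in cells with both and 89.6, 61.4 and 48.3 CPM in the KO libraries and 149 and 69.1 CPM in the WT libraries in cells with *Atp6v1g3* only. *Scnn1a* differed less, at means of 437 and 239.6 CPM, and *Nedd4l* had means of 155 and 142 CPM. Cells with both genes were deeper, with library medians of 4488 to 12421 UMIs, against 3213 to 4096, and the part of depth and of doublets was not tested.

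DCT was divided in the same way by *Slc12a3*, the thiazide-sensitive cotransporter, and *Calb1*, a calcium-binding protein most abundant in the late DCT and connecting tubule. Cells with *Calb1* only numbered 98, cells with both 356 and cells with *Slc12a3* only 86. In *Calb1*-only cells *Scnn1b* had 214, 235 and 235 CPM in the KO libraries and 196 and 202 CPM in the WT libraries, close to one another in all libraries. Cells with both genes had 29.9, 8.62 and 93.5 CPM in the KO libraries and 38.5 and 123 CPM in the WT libraries. *Scnn1g* was at 252, 147 and 224 CPM in the KO libraries and 320.3 and 224 CPM in the WT libraries in *Calb1*-only cells and at 22.4, 4.31 and 46.8 CPM in the KO libraries and 30.0 and 78.4 CPM in the WT libraries in cells with both. *Hsd11b2* followed with 330.0, 87.9 and 1237 CPM in the KO libraries and 285 and 1008 CPM in the WT libraries in *Calb1*-only cells, and 11.2, 6.47 and 41.6 CPM in the KO libraries and 1.43 and 44.8 CPM in the WT libraries in cells with both. In *Slc12a3*-only cells 0 UMIs of *Scnn1b*, *Scnn1g* or *Hsd11b2* were counted among 270828, which allows up to 11.1 CPM of each (3 counts), while *Scnn1a* had 333, 227 and 209.8 CPM in the KO libraries and 203 and 137 CPM in the WT libraries. Of these 4 genes *Scnn1a* alone was thus counted in every division of DCT. The *Calb1*-only cells made up 12.5, 13.5 and 26.2% of DCT in the KO libraries and 13.5 and 23.2% in the WT libraries, with the highest shares in KO mix and WT mix. The 98 *Calb1*-only cells held 280192 UMIs and the 86 *Slc12a3*-only cells 270828, against 2248784 in the 356 cells with both. Cells with both genes were thus deeper, and the part of depth in this division was not tested.

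**Figure D2:**
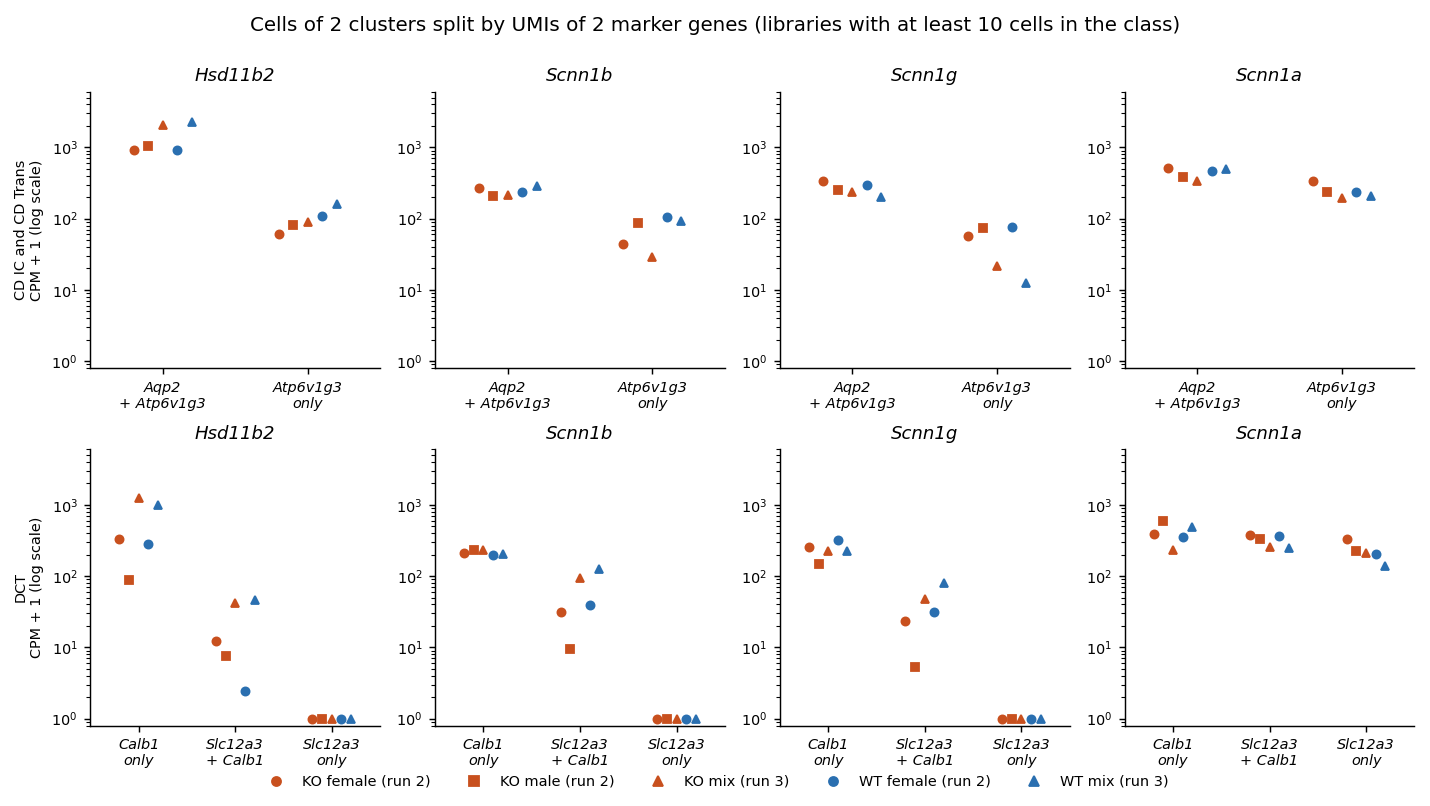
Levels of the channel genes and *Hsd11b2* in cells of CD IC/CD Trans and of DCT divided by the UMIs of marker genes, with CPM + 1 on a log axis and 1 point for each library. *Scnn1b*, *Scnn1g* and *Hsd11b2* are lower in *Atp6v1g3*-only cells than in cells with *Aqp2* and *Atp6v1g3*, and at 0 in *Slc12a3*-only cells, where *Scnn1a* keeps a level of 137 to 333 CPM.

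The comparison of KO with WT kidneys asked whether loss of FAME altered gene expression in these cells. None of the 8 genes passed the test between genotypes in any cell type where it was tested. UMIs were summed per library and type, and edgeR's quasi-likelihood test called 0 of 8 genes in CD PC, 0 of 7 tested in CD IC/CD Trans, 0 of 8 in DCT and 0 of 6 in LOH at an adjusted p of 0.05, where it called 0% of all genes tested in each of these types. At an unadjusted p of 0.05, edgeR gave 31, 35, 34 and 59 genes of all those tested in CD PC, CD IC/CD Trans, DCT and LOH. DESeq2 gave 14, 6, 4 and 8 such genes and limma-voom 32, 41, 137 and 64, with 0 adjusted calls by either tool. With the sex composition as a replicate block edgeR called 6, 7, 1 and 8 genes in the same types, and with the run as a block 0, 0, 0 and 2, none of them a member.

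In CD PC the log2 fold change of KO over WT was -0.17 (95% interval -1.19 to 0.85) for *Scnn1a*, 0.08 (95% interval -0.86 to 1.01) for *Scnn1b* and 0.18 (95% interval -0.65 to 1.01) for *Scnn1g*. *Hsd11b2* averaged 1649.8 CPM in KO and 2202 CPM in WT, with a fold change of -0.36 (95% interval -1.56 to 0.84). This value was 0.62 without WT mix and -0.93 without WT female. *Sgk1* was at 0.12 (95% interval -0.90 to 1.14), *Nr3c2* at -0.10 (95% interval -0.99 to 0.79), *Nedd4l* at 0.04 (95% interval -0.74 to 0.81) and *Tsc22d3* at -0.12 (95% interval -1.28 to 1.03). With the run as a block, the interval of *Hsd11b2* narrowed to -0.47 to 0.40 around -0.03.

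In CD IC/CD Trans the members ranged from -0.33 (95% interval -1.52 to 0.85) for *Hsd11b2* to 0.03 (95% interval -0.83 to 0.88) for *Scnn1g*, with -0.12 (95% interval -0.90 to 0.67) for *Scnn1a* and -0.31 for *Scnn1b*. DCT had the widest intervals, with -0.36 (95% interval -6.18 to 5.45) for *Hsd11b2*, -0.50 (95% interval -2.51 to 1.51) for *Scnn1b* and -0.72 (95% interval -2.50 to 1.06) for *Scnn1g*. With the run as a block *Hsd11b2* in DCT was 0.04 (95% interval -0.42 to 0.51), and *Scnn1g* was -0.67 (95% interval -1.23 to -0.11), which did not pass after adjustment by edgeR (adjusted p = 1). The smallest p among the members of these types was that of *Nedd4l* in DCT, with 34.5, 18.0 and 24.6 CPM in the KO libraries and 35.1 and 63.0 CPM in the WT libraries, and a fold change of -0.73 (95% interval -1.71 to 0.26) at an unadjusted p of 0.13 (adjusted p = 1, edgeR). Both WT libraries were above the KO libraries, WT female by less than 1 CPM over KO female. In LOH *Scnn1a* was at 0.09 (95% interval -0.79 to 0.98). In 7 other types 24 tests of members gave values between -0.75 and 0.68 with no call, among them -0.09 for *Sgk1* in GL endo and -0.19 (95% interval -2.56 to 2.18) for *Sgk1* in PT s.

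**Figure D3:**
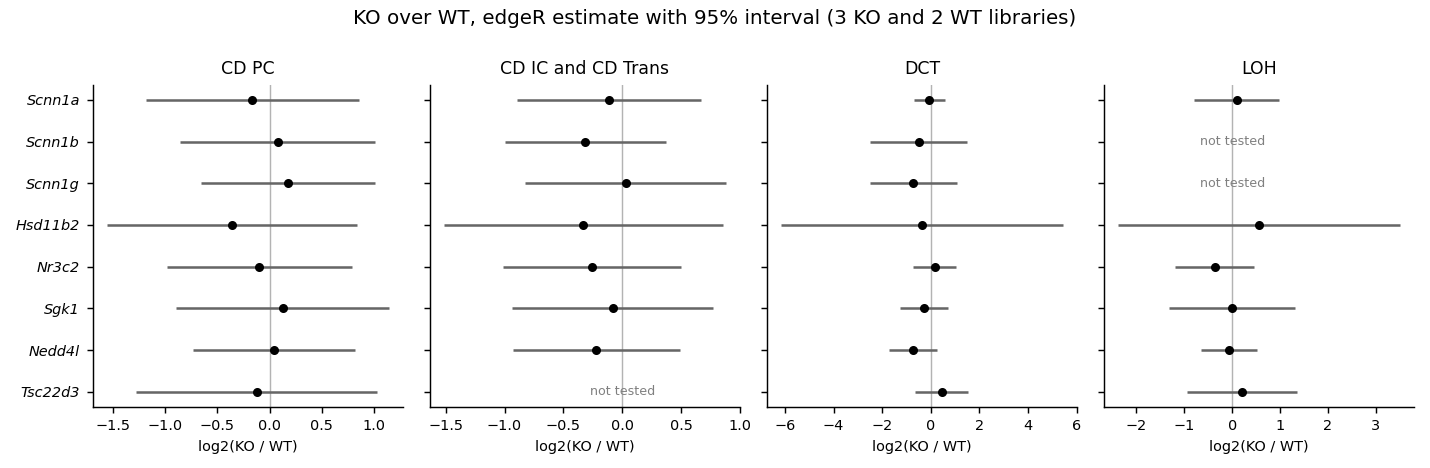
Log2 fold change of KO over WT for each tested member in CD PC, CD IC/CD Trans, DCT and LOH, with its 95% interval from edgeR, each panel with an x axis of its own. Every interval contains 0, and those of *Hsd11b2* are the widest in DCT and LOH.

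None of the 6 channel proteases, 18 genes of ubiquitin and kinase control, 7 genes of the corticosteroid receptors and their chaperones, 15 corticosteroid-induced genes or 9 transport genes of principal cells was called by edgeR between KO and WT in CD PC, CD IC/CD Trans, DCT, LOH or PT s. These lists hold the enzymes that cut the channel's subunits, the ligases and kinases that act on *Nedd4l* and on sodium transport, and the genes that corticosteroids are known to raise. In CD PC the median log2 fold change was -0.38 over the 11 corticosteroid-induced genes tested, -0.23 over 15 genes of ubiquitin and kinase control and 0.15 over 8 transport genes, against 0.01 over all 5172 genes tested. A list of 14 genes of the response to tissue dissociation had a median of -0.40 in CD PC, -0.68 in DCT and -0.36 in LOH, with no gene called, and its part in the values above was not tested.

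The spread between libraries in several members followed the sequencing run, and so run 3 (KO mix and WT mix) was compared with run 2 (KO female, KO male and WT female) by edgeR with the genotype as a term, a contrast chosen after the data were seen. *Hsd11b2* was higher in run 3 in each part of the distal nephron. In DCT it had 384 and 359 CPM in run 3, against 27.2, 16.2 and 23.0 CPM in run 2. The runs did not overlap, and the log2 difference was 4.18 ± 0.22 (SE, adjusted p = 4.9e-73). In CD PC it had 2329.6 and 3368 CPM in run 3, against 1312, 1308 and 1035 CPM in run 2, without overlap, and the difference was 1.06 ± 0.21 (SE, adjusted p = 0.00091). CD IC/CD Trans gave 1377 and 1559 CPM in run 3, against 558, 552 and 657 CPM in run 2 and 1.16 ± 0.12 (SE, adjusted p = 2.3e-06). The difference in CD PC was 0.63 (adjusted p = 0.17) without WT female and 0.64 (adjusted p = 0.16) without WT mix by edgeR, while that in DCT remained called without any 1 library. In GL endo, the measure of free RNA, *Hsd11b2* had 22.5 and 35.3 CPM in run 3, against 4.54, 19.7 and 5.98 CPM in run 2, and its difference was 1.45 ± 0.62 (SE, adjusted p = 0.1).

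**Figure D4:**
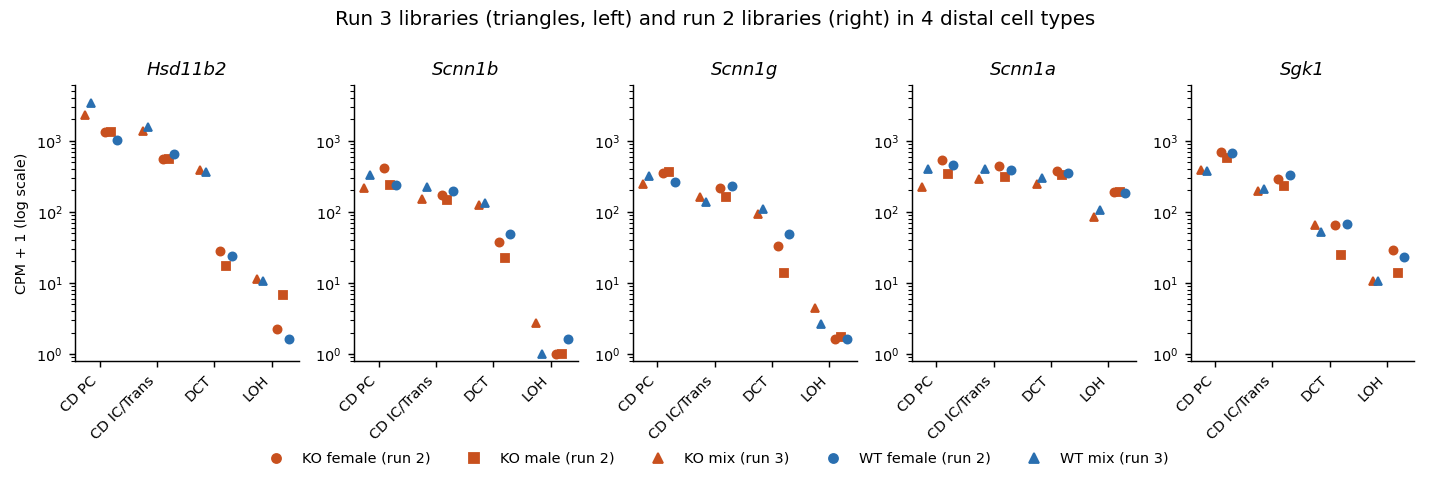
Levels of members in the distal nephron by sequencing run, run 3 left of run 2, with CPM + 1 on a log axis and 1 point for each library. Colours give the genotype (KO orange, WT blue) and symbols the sex composition. *Hsd11b2*, *Scnn1b* and *Scnn1g* are higher in run 3 in DCT without overlap, and *Sgk1* is lower in run 3 in CD PC without overlap, while *Scnn1a* overlaps between the runs there.

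In DCT the β and γ subunits were higher in run 3 along with *Hsd11b2*. *Scnn1b* had 123 and 132 CPM in run 3, against 36.6, 21.6 and 47.2 CPM in run 2, a log2 difference of 1.95 ± 0.28 (SE, adjusted p = 2.5e-10) by edgeR. *Scnn1g* had 92.1 and 107 CPM in run 3, against 32.4, 12.6 and 47.2 CPM in run 2, a difference of 1.75 ± 0.30 (SE, adjusted p = 3.4e-07), which was 1.37 (adjusted p = 0.059) without KO mix. *Scnn1a* in DCT did not pass at -0.25 ± 0.17 (SE, adjusted p = 0.36). Over all 6123 genes tested in DCT 16.8% were called, and 3 of 8 members, all 3 higher in run 3. In cells with at most 25% mitochondrial UMIs only KO mix of run 3 kept 20 cells, and its 21 cells with 39146 UMIs held 0 UMIs of *Scnn1b*, which allows up to 76.6 CPM, 1 of *Scnn1g* and 19 of *Hsd11b2*. Run 3 was then 1 library, assumed to vary like those of run 2, and the fitted difference was -7.07 for *Scnn1b* and -0.46 for *Scnn1g*, neither called, and 4.28 for *Hsd11b2*. The value of *Scnn1b*, from 0 UMIs, is no bound. The DCT cells over 25% numbered 109 and 68 in run 3, against 18, 23 and 16 in run 2. In them *Hsd11b2* had 370 and 378 CPM in run 3, against 66.6, 51.4 and 39.1 CPM in run 2. *Scnn1b* had 140 and 138 CPM, against 26.7, 22.0 and 39.1 CPM, and *Scnn1g* 101 and 123 CPM, against 40.0, 14.7 and 78.2 CPM. The values of run 2 rest on 2 to 7 UMIs each, and this part was not tested. Beside these differences, the *Calb1*-only cells were 26.2% and 23.2% of DCT in run 3, against 12.5%, 13.5% and 13.5% in run 2. *Aqp2* in DCT was at 175 and 157 CPM in run 3, against 10.5, 7.19 and 13.3 CPM in run 2, and the 7 principal cell markers together at 983 and 976 CPM in run 3, against 1165, 1402 and 1397 CPM in run 2, with *Aqp4* at 0 in 4 of 5 libraries. This sum includes *Kcnj1*, called lower in run 3 in DCT. *Aqp2* and *Aqp3* of the same list were called higher there, as given below. Within the cells with *Slc12a3* and *Calb1*, as given above, *Scnn1b*, *Scnn1g* and *Hsd11b2* were each higher in run 3 without overlap. Within the *Calb1*-only cells *Hsd11b2* was higher in run 3 without overlap, at 1237 and 1008 CPM in run 3, against 330.0, 87.9 and 285 CPM in run 2, while *Scnn1b* and *Scnn1g* overlapped between the runs. The part of these shares and markers in the result was not tested.

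In CD PC the α subunit and the kinase moved the other way. *Sgk1* had 380.4 and 374 CPM in run 3, against 697, 579.9 and 664 CPM in run 2, without overlap, and was lower in run 3 by edgeR, with a log2 difference of -0.93 ± 0.18 (SE, adjusted p = 0.00053). *Scnn1a* had 224 and 394 CPM in run 3, against 540.4, 336 and 457 CPM in run 2, with overlapping runs and a difference of -0.78 ± 0.24 (SE, adjusted p = 0.028). Without KO mix the values were -0.90 (adjusted p = 0.14) for *Sgk1* and -0.28 (adjusted p = 0.71) for *Scnn1a* by edgeR. The call of *Scnn1a* was also lost with cell sex as a term (-0.66 (adjusted p = 0.18)), without the genotype term (-0.69 (adjusted p = 0.068)) and in cells with at most 25% mitochondrial UMIs (-0.79 (adjusted p = 0.079)). In LOH *Scnn1a* had 84.5 and 104 CPM in run 3, against 187, 191 and 183 CPM in run 2, without overlap, and a difference of -0.88 ± 0.15 (SE, adjusted p = 6.4e-05), or -0.64 (adjusted p = 0.087) without KO mix. In CD IC/CD Trans run 3 had lower *Sgk1*, -0.65 ± 0.17 (SE, adjusted p = 0.0094), and lower *Scnn1g*, -0.59 ± 0.20 (SE, adjusted p = 0.042). Without WT female these were -0.59 (adjusted p = 0.15) and -0.41 (adjusted p = 0.4), without WT mix -0.59 (adjusted p = 0.099) and -0.42 (adjusted p = 0.34), and without KO mix -0.71 (adjusted p = 0.14) and -0.83 (adjusted p = 0.14). Without KO female *Scnn1g* in CD IC/CD Trans was -0.53 (adjusted p = 0.13), and in cells with at most 25% mitochondrial UMIs it was -0.12 (adjusted p = 0.75) by edgeR. The share of all genes called was 22.9% in CD PC, 24.4% in CD IC/CD Trans and 24.1% in LOH, beside 3 of 8, 3 of 7 and 2 of 6 members, and with so few members nothing particular to them is read from these counts.

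*Hsd11b2* in LOH was also called, at 10.4 and 9.74 CPM in run 3, against 1.21, 5.66 and 0.630 CPM in run 2 and 2.24 ± 0.69 (SE, adjusted p = 0.018) by edgeR, and lost the call without KO female (adjusted p = 0.12), WT female (0.13) or WT mix (0.2). These levels, and those of PT c at 3.93 ± 0.80 (SE, adjusted p = 0.022), lay below the level of GL endo in the same libraries of run 3 and are read as background. In PT c the call was lost without KO female (adjusted p = 0.096, edgeR), WT female (0.35) or WT mix (0.43). *Tsc22d3* was lower in run 3 in GL endo, where it had 139.8 and 123 CPM in run 3, against 209, 181 and 229 CPM in run 2 and a difference of -0.92 ± 0.20 (SE, adjusted p = 0.0052). It was also lower in PT c, -1.04 ± 0.21 (SE, adjusted p = 0.021), and in the proximal tubule cluster PT 1, -1.37 ± 0.28 (SE, adjusted p = 0.015). The call in GL endo was lost without KO mix (adjusted p = 0.06, edgeR), WT female (0.14) or WT mix (0.15), that in PT 1 without KO female (0.1), KO mix (0.22) or WT female (0.059), and that in PT c without KO female (0.097), KO mix (0.53), WT female (0.24) or WT mix (0.28) and in cells with at most 25% mitochondrial UMIs (0.3). In the cluster labelled PT f, *Sgk1* had 113 and 132 CPM in run 3, against 340.0 and 247 CPM in run 2, without overlap, and a difference of -0.97 ± 0.28 (SE, adjusted p = 0.0055) by edgeR. The background in these fits was 26.8% of genes called in GL endo, 8.12% in PT c, 15.9% in PT 1 and 22.6% in PT f.

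Among the other genes of the pathway, the calls between runs went both ways in nearly every list. Of the transport genes of principal cells, *Aqp2* was higher in run 3 in all 4 types, with log2 differences of 2.10 in CD PC, 1.62 in CD IC/CD Trans, 4.12 in DCT and 4.49 in LOH. *Kcnj1*, the ROMK potassium channel, was lower in all 4, from -0.94 in CD IC/CD Trans to -0.79 in CD PC. *Fxyd2* and *Fxyd4*, regulators of the sodium pump, were lower in CD PC (-0.74 and -0.79) and in CD IC/CD Trans (-0.36 and -0.82), *Fxyd2* was lower and *Aqp3* higher in DCT (-0.44 and 2.59), and *Fxyd4* was higher in LOH (2.26). With *Aqp2* and *Kcnj1* this made 1 higher and 3 lower of 8 tested in CD PC, 2 and 2 of 6 in DCT and 2 and 1 of 6 in LOH. Of all genes in these fits 22.9% were called in CD PC, 24.4% in CD IC/CD Trans, 16.8% in DCT and 24.1% in LOH. The counts of the transport genes lay above these shares in CD PC, DCT and LOH. With so few genes in each list, nothing particular to a list is read from its counts.

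Of ubiquitin and kinase control, *Wnk1*, a kinase of sodium transport, was lower in run 3 in all 4 types, at -1.25 in CD PC, -1.16 in CD IC/CD Trans, -1.03 in DCT and -1.25 in LOH. *Wnk4* was higher in the last 3 of these, at 0.91 in CD IC/CD Trans, 0.66 in DCT and 0.73 in LOH. The other calls of this list were *Ywhah* (1.32) and *Mapkap1* (1.08) in CD PC, *Usp2* (0.75) and *Ywhah* (0.76) in CD IC/CD Trans, *Mtor* (1.26) in DCT and *Ywhah* (0.59), *Nedd4* (-0.44) and *Ywhae* (-0.41) in LOH. This was 2 higher and 1 lower of 15 tested in CD PC, 3 and 1 of 17 in CD IC/CD Trans, 2 and 1 of 18 in DCT and 2 and 3 of 18 in LOH.

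Of the corticosteroid-induced genes, *Ndrg2* was lower in run 3 in all 4 types, at -1.37 in CD PC, -0.94 in CD IC/CD Trans, -0.60 in DCT and -0.46 in LOH. *Dusp1*, a phosphatase that is also on the dissociation list, was higher in CD PC, CD IC/CD Trans and DCT (1.03, 2.25 and 1.85), and *Ddit4* in CD PC and CD IC/CD Trans (1.29 and 2.94). The metallothionein *Mt1* was lower in CD IC/CD Trans, DCT and LOH (-0.66, -0.78 and -1.18) and *Mt2* in DCT and LOH (-0.95 and -1.63). *Errfi1* was higher in DCT and LOH (1.35 and 0.92), *Usp2* in CD IC/CD Trans as above, *Sult1d1* was lower in CD IC/CD Trans and LOH (-1.26 and -0.89), and *Fkbp5*, a chaperone of the receptors, in LOH. In all, 2 were higher and 1 lower of 11 tested in CD PC, 3 and 3 of 10 in CD IC/CD Trans, 2 and 3 of 11 in DCT and 1 and 5 of 13 in LOH, with medians of 0.12, 0.04, -0.02 and -0.32, against medians of 0.01, 0.01, 0.00 and 0.01 over all genes tested. Among the receptor chaperones, *Ptges3* was higher in CD PC (0.73). Of the channel proteases, *St14* was higher in CD PC (1.22) and *Prss8* in CD IC/CD Trans and LOH (1.09 and 0.53), whereas *Plau* was lower in CD PC, CD IC/CD Trans and LOH (-1.28, -1.87 and -1.28) and *Ctsb* in CD PC and DCT (-0.74 and -0.55).

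The 14 genes of the dissociation response stood at 6297 and 8403 CPM in CD PC of run 3, against 3591, 3416 and 3629 CPM in run 2, and 10 of 14 were called higher in CD PC, 12 in CD IC/CD Trans, 12 in DCT and 12 in LOH. Of all genes tested, 526 of 5172 were called higher in CD PC and 631 of 5879 in CD IC/CD Trans. These numbers were 491 of 6123 in DCT and 1043 of 8952 in LOH. The 8 markers of the distal convoluted and connecting tubule in CD PC stood at 6432 and 6689 CPM in run 3, against 42902, 28640.4 and 15172 CPM in run 2, and *Pvalb*, a defining marker among them, was at 0 in WT mix. The part of these lists in the members' differences was not tested.

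The difference between the types was tested itself, with the library as a block and a product of cell type and run. The run difference in DCT minus that in CD PC was 3.16 (95% interval 2.69 to 3.63, adjusted p = 5.1e-19) for *Hsd11b2*, 2.33 (95% interval 1.68 to 2.98, adjusted p = 4.3e-07) for *Scnn1b* and 2.14 (95% interval 1.19 to 3.09, adjusted p = 0.015) for *Scnn1g* by edgeR. *Sgk1* followed with 1.26 (95% interval 0.56 to 1.97, adjusted p = 0.035), while *Scnn1a*, *Nr3c2*, *Nedd4l* and *Tsc22d3* did not pass. Of all 6262 genes in this fit 2.09% were called. Between LOH and CD PC no member passed, and 1.05% of 7418 genes did. The largest of these values in LOH was that of *Scnn1g*, 2.50 (95% interval 0.72 to 4.28, adjusted p = 0.24, edgeR), which rests on 8 UMIs in LOH. In LOH *Scnn1b*, *Scnn1g* and *Hsd11b2* were at the level read as background, so this fit cannot decide on their run difference there.

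*Sgk1* in the proximal tubule followed the sex of the cells. Cells with a UMI of *Xist* and none of 4 Y-linked genes (Xist cells) were set against cells with a UMI of a Y-linked gene and none of *Xist* (Y cells), again a contrast chosen after the data were seen. Of the cells, 1424, 0 and 1445 were Xist cells in the KO libraries and 1373 and 378 in the WT libraries, and 0, 901 and 425 were Y cells in the KO libraries and 0 and 800 in the WT libraries. Cells with neither were left out, 1520, 893 and 1622 in the KO libraries and 1165 and 2137 in the WT libraries. Also left out were 75 cells of KO mix and 39 of WT mix with both. A cell needed a captured UMI to be placed, and the part of depth in this selection was not tested. In PT s *Sgk1* had 291, 119, 266 and 160.3 CPM in the Xist cells of KO female, KO mix, WT female and WT mix, against 35.4, 21.6 and 33.1 CPM in the Y cells of KO male, KO mix and WT mix. Every Xist value was above every Y value, also within KO mix and within WT mix. The log2 difference was 2.52 ± 0.18 (SE, 95% interval 2.15 to 2.89, adjusted p = 2.3e-10) by edgeR with the run as a term, where 26.8% of 7992 genes were called. Within the mixed libraries alone, with the library as a term, it was 2.22 (adjusted p = 1.3e-19, edgeR), from the sums of KO mix and WT mix only. In the fits with the run as a term, here and in the other types, the Xist and Y sums of a mixed library were taken as separate samples. The number of mice behind each sex is unknown, so these p-values do not measure the spread between mice.

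In PT c *Sgk1* had 109.6, 46.0, 100.0 and 62.9 CPM in the Xist cells of KO female, KO mix, WT female and WT mix, against 39.8, 18.0 and 23.1 CPM in the Y cells of KO male, KO mix and WT mix, and the difference was 1.38 ± 0.20 (SE, adjusted p = 9.5e-06, edgeR), with 6.92% of genes called. Without KO male it was 1.20 (adjusted p = 0.054) by edgeR. In the cluster PT 2 it had 251, 166 and 200.3 CPM in the Xist cells of KO female, KO mix and WT female, against 42.0, 36.1 and 46.7 CPM in the Y cells of KO male, KO mix and WT mix, and the difference was 2.26 ± 0.34 (SE, adjusted p = 0.00033, edgeR), with 5.62% of genes called. *Sgk1* did not pass in the other types tested, with 0.24 (95% interval -0.22 to 0.71) in GL endo, 0.39 (-0.05 to 0.82) in CD PC and 1.35 (0.51 to 2.20, adjusted p = 0.22 by edgeR) in DCT. No other member passed in any of the 8 types tested. RBC, the measure of free RNA, had *Sgk1* at 89.6, 29.5 and 42.4 CPM in the KO libraries and 51.5 CPM in WT female. The Xist cells of PT s were above RBC of the same library, while the Y cells of PT s stood close to RBC in KO male and below RBC in KO mix. The differences were not corrected for this background.

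**Figure D5:**
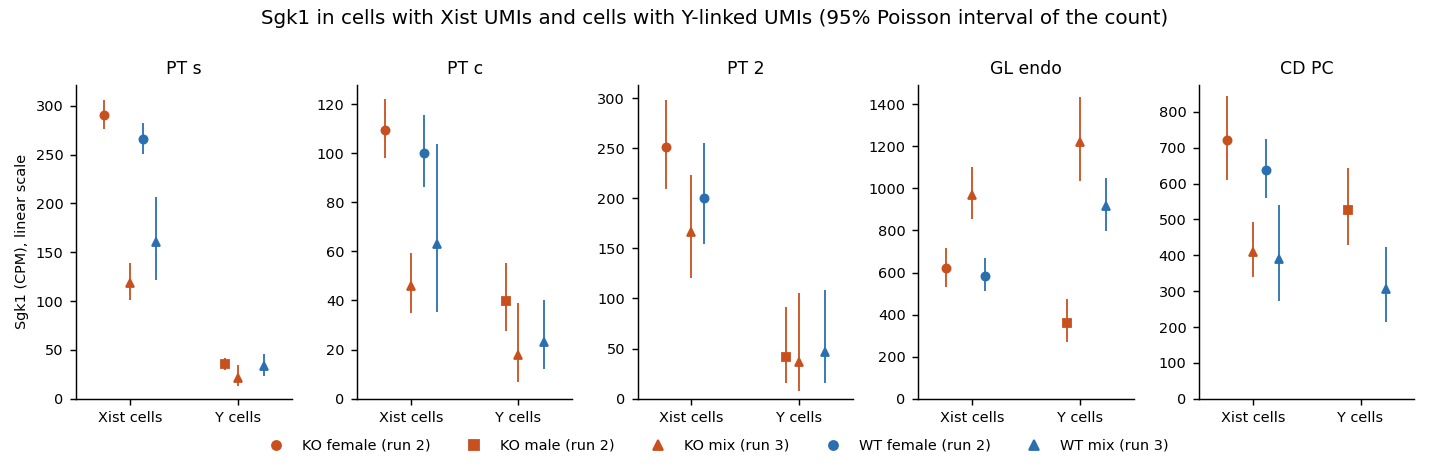
Level of *Sgk1* in CPM (linear axis) in Xist cells and in Y cells of each library, for PT s, PT c, PT 2, GL endo and CD PC, each with an axis of its own and 95% exact Poisson intervals of the count. In PT s the Xist cells, at 119 to 291 CPM, are all above the Y cells, at 21.6 to 35.4 CPM, while in GL endo and CD PC the ranges overlap.

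The difference by cell sex in PT s was tested against that in CD PC, GL endo and PT c. It exceeded that in CD PC by 2.07 (95% interval 1.38 to 2.76, adjusted p = 0.00023), that in GL endo by 2.65 (95% interval 1.53 to 3.77, adjusted p = 0.012) and that in PT c by 1.10 (95% interval 0.53 to 1.67, adjusted p = 0.016) on the log2 scale by edgeR. In these fits 1.81%, 2.27% and 3.81% of all genes were called. Each library and cell sex was a block, so the Xist and Y sums of a mixed library counted as separate units. No term let the run difference vary between the types, and the part of the run was not tested. No other member passed in any of the 3 fits. In PT s *Scnn1a*, *Scnn1b*, *Scnn1g*, *Hsd11b2* and *Nr3c2* had means of 0.815 to 5.17 CPM, each below that of RBC. The fits therefore cannot decide on the difference of these genes in PT s.

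Genes of the pathway lists in PT s differed between Xist cells and Y cells in both directions. *Hsd11b1*, whose enzyme regenerates active glucocorticoid and so works against that of *Hsd11b2*, was lower in Xist cells, with a log2 difference of -6.26 by edgeR. Of the corticosteroid-induced genes *Per1*, a clock gene, was higher (1.21), and *Ddit4* (-2.67), *Dusp1* (-1.29), *Fkbp5* (-0.49) and *Ndrg2* (-0.48) were lower, that is 1 higher and 4 lower of 11 tested, where 26.8% of all genes were called. *Klhl3*, the adaptor that marks WNK kinases for degradation, was higher (2.41), as were *Wnk4* (0.91) and *Wnk1* (0.50). *Nedd4l* was at 0.34 (95% interval 0.01 to 0.67, adjusted p = 0.13, edgeR) and *Tsc22d3* at 0.13 (-0.22 to 0.48, adjusted p = 0.62).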

How the data were processed

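Single-cell libraries of kidneys (3 KO, 2 WT) were analysed from the deposited matrix of UMI counts and the authors' cell annotation. The authors aligned and counted reads with Cell Ranger 4.0.0 on mm10 and clustered cells with Seurat 3.2.2.9001, per the submitters' processing notes, and by their methods kept cells with at least 1000 UMIs and at most 50% mitochondrial UMIs and genes found in at least 3 cells. In the files the lowest UMI count of a cell was 1001 and the highest mitochondrial share 50.0%. The authors predicted doublets with Scrublet and deposited a doublet score per cell, and no cells were left out by it here except in an alternative without the 5% of cells with the highest score in each library. The percent of mitochondrial UMIs per cell was also taken as the authors deposited it. Libraries were grouped by the genotype in the labels.

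Counts were summed per library and annotated type where at least 20 cells were present, and levels are CPM of the sum. KO was compared with WT by edgeR 4.0.16 (quasi-likelihood test, robust, TMM, filterByExpr, two-sided) in R 4.3.3, over all genes passing the filter, with Benjamini-Hochberg adjusted p at 0.05, and DESeq2 1.42.0 and limma-voom 3.58.1 as alternatives. The test of KO against WT was checked on simulated data, with independent libraries, a fixed dispersion and no differences by run or sex. The fits by run, by cell sex and between types were not checked in this way. Further alternatives were size factors of DESeq2, the raw UMI total, no filter or at least 20 counts in every library, an adjusted p of 0.01, cells with at least 2000 UMIs, cells with at most 25% mitochondrial UMIs, mitochondrial genes left out of the total, a replicate block and each library left out in turn. Shares and CPM of single libraries have 95% exact intervals, and intervals and limits from 0 counts (3 counts) cover counting error only. Figures and levels were made with Python 3.11.15.

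All 8 genes are named. For likeness the 3 genes with the highest r were named, and of the pathway lists every gene that passed in the distal types, by a rule set out with the gene lists, except for a few results that are not reported here. The members and lists were chosen with earlier results of these data known, and the contrasts by run, by cell sex and between types, and their alternatives, were chosen after the data were seen. Female and mixed libraries of both genotypes share the label of sex composition and the run. Their deviations from the group means correlated across genes at 0.41 (female) and 0.67 (mix) in CD PC, 0.49 and 0.69 in CD IC/CD Trans, 0.42 and 0.50 in DCT and 0.53 and 0.65 in LOH. With 2 WT libraries the WT deviations mirror each other, so the 2 values of a type are not independent. KO male has no partner, and with 2 such pairs the labels do not state a shared litter, so the fit without a block is given first.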

Additional observations from a re-analysis of the deposited data

Results flagged for a closer look

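The difference of run 3 from run 2 was not the same in DCT as in CD PC for 4 of the 8 genes, by edgeR's test of the difference itself. *Hsd11b2* differed by 3.16 more in DCT than in CD PC on the log2 scale (adjusted p = 5.1e-19), *Scnn1b* by 2.33 (adjusted p = 4.3e-07), *Scnn1g* by 2.14 (adjusted p = 0.015) and *Sgk1* by 1.26 (adjusted p = 0.035). For *Sgk1* the difference was negative in CD PC and not called in DCT, where the level was close to that of RBC. The part of the higher mitochondrial share, of the lower depth of DCT cells and of the larger share of *Calb1*-only cells in run 3 was not tested.

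The difference of Xist cells from Y cells in *Sgk1* was larger in PT s than in CD PC by 2.07 on the log2 scale (adjusted p = 0.00023), than in GL endo by 2.65 (adjusted p = 0.012) and than in PT c by 1.10 (adjusted p = 0.016), by edgeR. The direction was shared by the 2 mixed libraries, whose Xist and Y cells were counted in 1 library each. These fits had no term for a run difference that varies between the types.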

How the results depend on the processing

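Between KO and WT no member was called under any alternative. The number of genes called in CD PC was 2 with no filter, and with the sex composition as a replicate block it was 6 in CD PC, 7 in CD IC/CD Trans, 1 in DCT and 8 in LOH, and with the run as a block 2 in LOH. Leaving out each library gave 0 to 10 calls in CD PC. The block changed no call of a member. Of 473 log2 fold changes under alternatives, 66 changed sign, and none of the values below was called.

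In CD PC *Scnn1b* was -0.035 (at least 20 counts), -0.0081 (run block) and -0.041 (at most 25% mitochondrial UMIs), *Sgk1* -0.0070 (run block), *Nedd4l* -0.016 (raw total), -0.044 (at least 20 counts), -0.0062 (sex block) and -0.075 (at least 2000 UMIs), and *Tsc22d3* 0.075 (at most 25% mitochondrial UMIs) and 0.015 (doublets). *Scnn1g* in CD IC/CD Trans was -0.054 (raw total), -0.0057 (at least 20 counts), -0.035 (run block) and -0.021 (doublets). In DCT *Hsd11b2* was 0.041 (run block) and 0.10 (sex block) and *Sgk1* 0.021 (sex block). In LOH *Scnn1a* was -0.040 (run block) and -0.060 (sex block), *Sgk1* -0.15 (limma-voom), -0.0071 (raw total), -0.055 (run block), -0.019 (at most 25% mitochondrial UMIs) and -0.22 (doublets), and *Nedd4l* 0.019 (sex block). With the sex block *Sgk1* was 0.27 in PT s and 0.12 in GL endo.

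With each library left out, ranges in CD PC were -0.58 to 0.092 for *Scnn1a*, -0.28 to 0.25 for *Scnn1b*, -0.93 to 0.62 for *Hsd11b2*, -0.44 to 0.37 for *Nr3c2*, -0.28 to 0.70 for *Sgk1*, -0.22 to 0.35 for *Nedd4l* and -0.56 to 0.56 for *Tsc22d3*. In CD IC/CD Trans they were -0.35 to 0.012 for *Scnn1a*, -0.33 to 0.58 for *Scnn1g*, -0.87 to 0.33 for *Hsd11b2* and -0.41 to 0.39 for *Sgk1*, and in DCT -0.17 to 0.045 for *Scnn1a*, -1.38 to 0.25 for *Scnn1b*, -2.86 to 2.58 for *Hsd11b2*, -0.48 to 0.093 for *Sgk1* and -0.51 to 0.88 for *Tsc22d3*. In LOH they were -0.18 to 0.49 for *Scnn1a*, -0.88 to 3.04 for *Hsd11b2*, -0.72 to 0.42 for *Nr3c2*, -0.54 to 0.74 for *Sgk1*, -0.26 to 0.11 for *Nedd4l* and -0.41 to 0.62 for *Tsc22d3*. For *Sgk1* they were -1.39 to 1.21 in PT s and -0.34 to 0.12 in GL endo.

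Between runs, the number of genes called was 232 in DCT and 735 in LOH in cells with at most 25% mitochondrial UMIs, and 527 in DCT with cell sex as a term. With each library left out it was 67 to 1159 in CD PC, 519 to 1680 in CD IC/CD Trans, 377 to 772 in DCT and 845 to 2333 in LOH, lowest without KO mix. In DCT *Scnn1g* was -0.46 and *Scnn1b* -7.07 in cells with at most 25% mitochondrial UMIs, where run 3 was 1 library, assumed to vary like those of run 2, with 0 UMIs of *Scnn1b*. Of 130 values of called members, 94 kept direction and call, 34 lost the call and 2 reversed. Between Xist and Y cells the number of genes called in PT s was 744 without the run term, 1151 in the mixed libraries, 3353 in libraries of 1 sex and 1084 to 2414 with each library left out. In PT c it was 129 without the run term, 210 in the mixed libraries and 183 to 448, and in PT 2 65 without the run term, 358 in libraries of 1 sex and 47 to 285. In 28 of 29 values *Sgk1* kept direction and call. The share of principal cells with more than 1 subunit was 20.5% after thinning. The cause of these changes was not tested.

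Low counts limit *Nr3c2* in all types and the β and γ subunits outside the collecting duct. The design has 2 WT libraries, and run, sex composition and mitochondrial share move together.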
